A study of Arabidopsis thaliana with 48 samples.

Results

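GIGANTEA, written GI here, is locus AT1G22770 of Arabidopsis thaliana and was read by 1 of the 22746 probe sets on the array that are not controls. It was chosen by name, and its level was followed across all 9 groups and 3 days of the study. Pooled whole seedlings of 3 lines were collected, each grown in short days on sucrose medium and moved at dawn of day 4 to cycles of 160 min of light and 320 min of dark, 3 cycles a day. The double mutant pif4 pil5, without the transcription factors PIF4 and PIL5, which are targets of the phytochrome light receptors, was collected in the dark 280 min into the day (6 arrays) and was labelled not growing. The line CCA1OX, which overexpresses the clock transcription factor CCA1, was collected in the light at 120 min (5 arrays), in the dark at 280 min (6), in the light at 1080 min (5) and in the dark at 1240 min (5), and was labelled growing in both dark groups. The accession Col was collected at the same 4 times with the same numbers of arrays, and was labelled growing at dark 280 min alone. Growth means elongation of the hypocotyl, the stem of the seedling. Each group spans days 4, 5 and 6 after germination, and the labels give neither the promoter nor the transgenic or mutant alleles behind the lines.

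GI is a large plant protein of the nucleus and cytosol that is part of the circadian clock. Its transcript normally peaks late in the day. The protein stabilises the blue light receptor ZTL, which targets clock proteins for degradation. With the related receptor FKF1, GI removes repressors of CO, the regulator that connects day length to flowering. CCA1 and its relative LHY, which accumulate in the morning, bind the promoters of evening genes such as GI and repress them.

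The values are log2 expression levels, so a difference of 1 is a change of 2-fold. Array medians lay between 4.57 and 4.80, and the median of all probe set means was 4.70. No pair of arrays was identical (0 pairs). GI averaged 6.24 over the 48 arrays and ranged from 3.14 to 8.24. It ranked 43 by its standard deviation over the arrays among the 22746 probe sets. The array names of the labels divide the arrays into an earlier and a later campaign of 24 each. In the first campaign, 3 arrays did not follow their light label: a darkness score, built without GI from 160 probe sets with higher and 324 with lower dark levels in the second campaign, lay between 0.06 and 0.98 in the other 10 dark arrays of the first campaign and between -0.77 and -0.14 in its other 11 light arrays. It was -0.64 in Col dark 280 replicate 3 and -0.57 in CCA1OX dark 280 replicate 2, and 0.63 in Col light 1080 replicate 3. GI stood at 8.24, 7.57 and 4.05 in these 3 arrays. All 48 arrays are kept under their labels, and values with the remaining 45 are given where they bear on a result. CCA1, PIF4 and PIL5 have no named probe set in the table used here, so the overexpressor and the double mutant were not checked at their own genes. In pooled whole seedlings, fewer cells that express GI and less GI transcript per cell cannot be told apart. Of 15 tissue markers set aside for a check, 2 had a named probe set: the leaf gene RCA, which encodes Rubisco activase, at 11.0 to 12.8, and the root gene AGL42 at 1.71 to 2.26.

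GI was highest in CCA1OX in the light and lowest in Col in the dark at 1240 min. The group means (with SD) were 7.63 ± 0.12 in CCA1OX light 1080 (n = 5), 7.41 ± 0.34 in CCA1OX light 120 (n = 5) and 7.00 ± 0.41 in CCA1OX dark 280 (n = 6). They were 6.73 ± 0.40 in Col light 120 (n = 5), 6.48 ± 1.43 in Col light 1080 (n = 5) and 6.37 ± 0.31 in CCA1OX dark 1240 (n = 5). The lowest were 5.83 ± 1.72 in Col dark 280 (n = 6), 5.34 ± 1.95 in pif4 pil5 dark 280 (n = 6) and 3.52 ± 0.35 in Col dark 1240 (n = 5). In this order each gap between neighbours was smaller than the larger of their 2 SDs, and the ranges of neighbours overlapped in every case. No neighbour in this order was thus separated from the next by its spread. With 45 arrays Col light 1080 averaged 7.08 ± 0.53 (n = 4) and stood above CCA1OX dark 280 at 6.89 ± 0.34 (n = 5), while Col dark 280 averaged 5.35 ± 1.40 (n = 5).

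The range of GI was narrower in CCA1OX than in Col in these arrays, and the tests of lines by light and by time, given further on, did not pass. Over its 21 arrays GI spanned 5.99 to 7.79 in CCA1OX, against 3.14 to 8.24 in Col, where the 8.24 is an array at odds with its label and the next highest was 7.49. The 4 group means spanned 1.26 in CCA1OX, or 2.40-fold, against 3.21 in Col, or 9.28-fold. In the 6 arrays of pif4 pil5, all from 1 time of day, GI spanned 3.46 to 8.05. The residual SD of GI about the group means was 1.07, against a median of 0.24 over all probe sets, and 96th in rank. The wide groups were Col dark 280, pif4 pil5 dark 280 and Col light 1080.

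**Figure D1:**
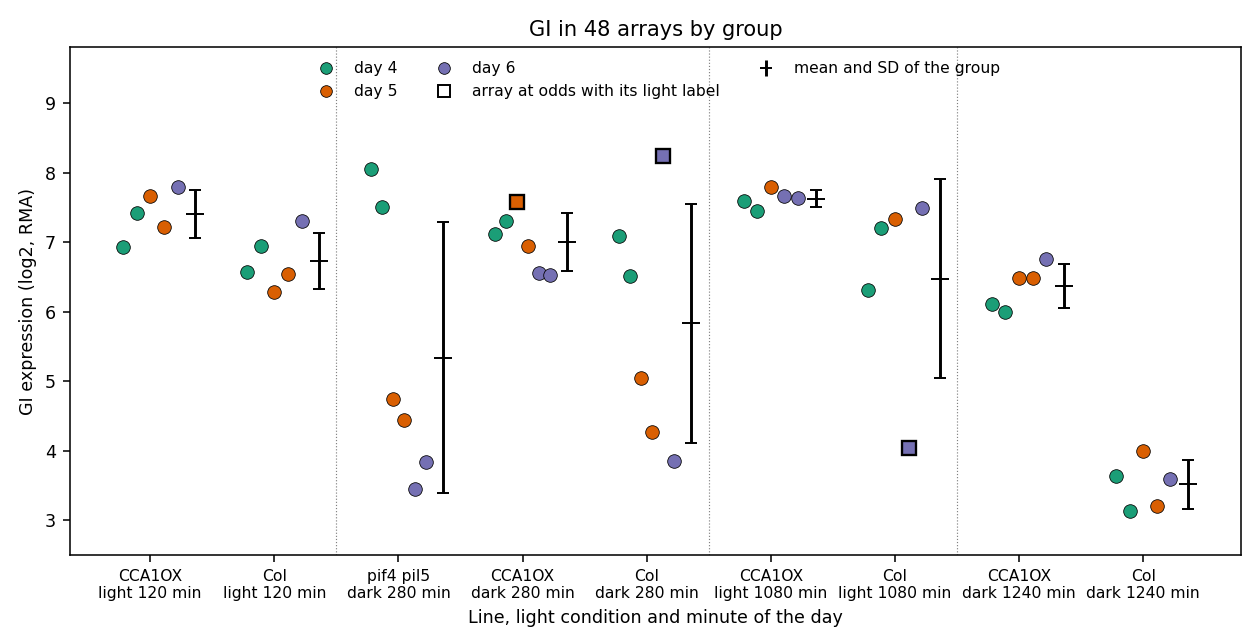
GI expression (log2) in each of the 48 arrays, by line, light condition and minute of the day, coloured by day; the bar beside each group is its mean and SD, and squares mark the 3 arrays at odds with their light label. The 5 arrays of Col dark 1240 lie between 3.14 and 4.00, while the day 4 arrays of pif4 pil5 and Col at dark 280 lie above those of day 5.

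Light and dark were compared within each cycle to ask whether GI follows the short cycles. The dark sample of a cycle was always collected later than its light sample, in the late cycle at 1240 min against 1080 min. Light and time of day therefore cannot be told apart in any comparison within a cycle. In the late cycle of Col, GI was at 3.64, 4.00, 3.60, 3.14 and 3.21 in the dark at 1240 min, against 6.31, 7.33, 4.05, 7.20 and 7.49 in the light at 1080 min. Every dark array lay below every light array, and the lowest light value belonged to replicate 3, the array that scored as dark. The difference was -2.96 ± 0.65 (log2 ± SE), or 7.76-fold lower in the dark, the third in size among all probe sets. It narrowly missed the threshold (limma adjusted p = 0.0536) in a comparison that called 0.0747% of probe sets. It passed with 45 arrays, at -3.56 (adjusted p = 0.000232), with the replicate number of the titles as a block (adjusted p = 0.0480) and with that number and the day as blocks (adjusted p = 0.0304). It did not pass with array batch as a block (adjusted p = 0.055) or when these groups alone were fitted (adjusted p = 0.363). The 45 arrays were chosen by light-responsive probe sets, which favours differences between light and dark. Probe sets called in this comparison rose from 17 with all arrays to 512 with 45. In the second campaign alone the difference was -4.17 and in the first, which holds the array at odds, -2.15. Neither passed.

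In the early cycle of Col the dark and light levels overlapped. GI was at 7.09 and 6.51 on day 4, 5.05 and 4.27 on day 5 and 8.24 and 3.85 on day 6 in the dark at 280 min, against 6.57, 6.29, 7.31, 6.94 and 6.55 in the light at 120 min. On day 4 the dark arrays lay within the range of the light arrays, and on day 5 below it. The difference of the group means was -0.90 ± 0.62 (limma adjusted p = 0.707; 1.02% of probe sets called). It was -1.38 with Col dark 280 replicate 3 left out, 0.07 in the first campaign alone and -1.87 in the second.

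In CCA1OX the late cycle showed a smaller and more even difference. GI was at 6.11, 6.49, 6.76, 5.99 and 6.48 in the dark at 1240 min, against 7.59, 7.79, 7.67, 7.45 and 7.64 in the light at 1080 min. The groups did not overlap. The difference was -1.26 ± 0.65, or 2.40-fold lower in the dark, and missed the threshold in the fit over all groups (limma adjusted p = 0.357; 4.32% of probe sets called), whose spread for GI includes the wide Col and pif4 pil5 groups. When these 2 groups alone were fitted it passed (adjusted p = 0.000108). In the early cycle the CCA1OX values were 6.53 to 7.57 in the dark at 280 min, with a median of 7.03, against 6.93, 7.66, 7.79, 7.42 and 7.22 in the light at 120 min. They overlapped, with a difference of -0.40 ± 0.62 (adjusted p = 0.853; 1.43% called), and of -0.52 with 45 arrays.

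Whether the lines differed in these light and dark differences, which are also differences in time of day, was tested by interaction contrasts. The late-cycle difference was smaller in CCA1OX than in Col by 1.70 ± 0.92 and the early-cycle one by 0.50 ± 0.88. Neither passed (limma adjusted p = 1 each). Here limma called 0 probe sets, while 541 in the late and 700 in the early cycle had an unadjusted p under 0.05. For GI the unadjusted p was 0.073 in the late cycle and 0.577 in the early cycle.

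The same light condition was then compared between the later and the earlier time of day. In Col the dark level at 1240 min averaged 3.52, against 5.83 at 280 min. The difference was -2.32 ± 0.62, or 4.98-fold lower at 1240 min and the fifth in size of all probe sets, and it did not pass (limma adjusted p = 0.229; 0.101% called; unadjusted p = 0.000603). The lowest array at 280 min, 3.85 on day 6, lay inside the range of 3.14 to 4.00 at 1240 min, while the others lay above that range. With 45 arrays the difference was -1.83 (adjusted p = 0.223), and it was -3.04 in the first campaign and -1.70 in the second. In the light GI averaged 6.48 at 1080 min and 6.73 at 120 min in Col, a difference of -0.26 ± 0.65 (adjusted p = 0.999; 0.0659% called), which was 0.35 with 45 arrays. In CCA1OX the dark difference was -0.64 ± 0.62 (6.37 at 1240 min and 7.00 at 280 min) and the light difference 0.22 ± 0.65 (7.63 at 1080 min and 7.41 at 120 min). Both had a limma adjusted p of 1, and limma called 0 probe sets in either, while 303 (dark) and 655 (light) had an unadjusted p under 0.05. The dark difference between the times was smaller in CCA1OX than in Col by 1.68 ± 0.88 (unadjusted p = 0.0645, adjusted p = 1; limma called 0 probe sets, while 381 had an unadjusted p under 0.05).

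CCA1OX and Col were compared at each time. At dark 1240 min, where Col was labelled not growing and CCA1OX growing, GI was higher in CCA1OX. The 5 CCA1OX arrays lay between 5.99 and 6.76 and the 5 Col arrays between 3.14 and 4.00, a gap without overlap on any day. The difference was 2.85 ± 0.65, or 7.20-fold (limma adjusted p = 0.0164), the tenth in size of all probe sets, in a comparison that called 0.620% of them. It held its size in the first campaign (2.70) and the second (3.06), where fewer arrays left it short of the threshold (adjusted p = 0.253 and 0.308). The call was also lost, at 2.75 to 2.82, when CCA1OX replicate 3 or 5, or Col replicate 4 or 5, of this time was left out (adjusted p of 0.0501 to 0.0597 over these 4). The other 6 single arrays left it in place.

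At the other 3 times GI also averaged higher in CCA1OX, without passing. The difference was 0.67 ± 0.65 at light 120 min (7.41 in CCA1OX and 6.73 in Col; limma adjusted p = 0.718; 0.246% called). It was 1.15 ± 0.65 at light 1080 min (7.63 in CCA1OX and 6.48 in Col; adjusted p = 0.722; 0.154% called), 0.54 with 45 arrays, 1.79 in the first campaign and 0.20 in the second. It was 1.17 ± 0.60 at dark 280 min (7.00 in CCA1OX and 5.83 in Col; adjusted p = 0.696; 0.123% called), 1.54 with 45 arrays, 0.29 in the first campaign and 2.05 in the second. The arrays at odds all lie in the first. At light 1080 min the 5 CCA1OX arrays lay between 7.45 and 7.79, while Col reached 7.49, so the groups overlapped at their edge.

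**Figure D2:**
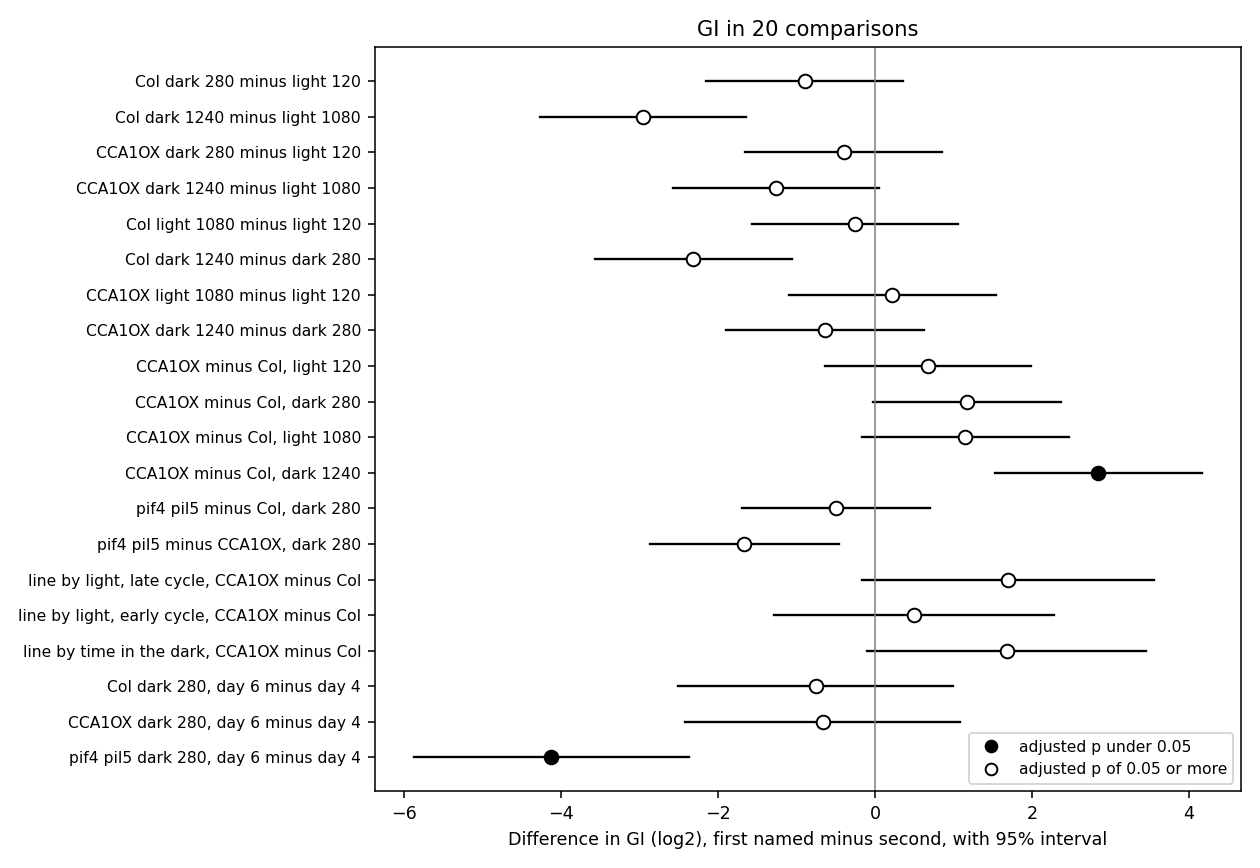
Difference in GI (log2) for 20 comparisons, the first named minus the second, with the 95% interval of the limma fit; filled points passed the threshold of 0.05 after adjustment over all probe sets. CCA1OX minus Col at dark 1240 (2.85) and day 6 minus day 4 in pif4 pil5 (-4.12) are the 2 filled points.

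Each group mixes 3 days, and at dark 280 min the level of GI went with the day in pif4 pil5. This sample of day 4 was taken in the first dark period after the move to short cycles, and those of days 5 and 6 followed full days of them. In pif4 pil5 GI was at 3.46 and 3.85 on day 6 and at 4.74 and 4.44 on day 5, against 8.05 and 7.50 on day 4. The days did not overlap, and both sets of samples gave the same order. On day 6 it was lower than on day 4 by 4.12 ± 0.85 on the log2 scale (difference -4.12, limma fit of group and day means, adjusted p = 0.0137), or 17.4-fold. This was the largest change of any of the 22746 probe sets, in a comparison that called 2.09% of them. The difference of day 5 from day 4 was -3.18 ± 0.85, or 9.09-fold, again the largest of all probe sets, and did not pass (adjusted p = 0.191; 0.163% called).

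All 6 pif4 pil5 arrays fall in 1 array batch, a group of arrays that share a date in the array names of the labels, so the difference between days does not cross batches. The difference between the 3' and 5' actin control probe sets, a measure of RNA quality, was 3.21 and 2.94 on day 6, against 3.05 and 2.83 on day 4. The darkness score was lower on the later days, at 0.41 and 0.38 on day 6 and 0.23 and 0.29 on day 5, against 0.75 and 0.54 on day 4. Its part in the result was not tested. The call rests on 2 arrays a day: without any 1 of the 4 arrays compared the difference lay between -4.39 and -3.85 and missed the threshold (adjusted p = 0.0734 to 0.196). With the 45 arrays that follow their labels, which keep all 6 of pif4 pil5 and give GI a smaller residual spread, the adjusted p was 1.24e-07 for day 6 and 1.67e-05 for day 5 against day 4. The differences themselves were unchanged in that fit. Its smaller p comes from leaving out Col and CCA1OX arrays, and adds no support from pif4 pil5 beyond the same 2 arrays a day.

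In the Col arrays that follow their light label GI was also lower on the later days, with a single array on day 6. GI at dark 280 min was at 3.85 on day 6 in the second campaign and at 8.24 in replicate 3, the array at odds with its label. On day 5 it was at 5.05 and 4.27, against 7.09 and 6.51 on day 4. The day 6 minus day 4 difference was -0.76 ± 0.85 with all arrays (limma adjusted p = 0.713; 2.86% called), -2.95 with 45 arrays and -2.66 in the second campaign alone. These last values rest on 1 array on day 6 (replicate 6), and in the second campaign on 1 array on day 4 as well, so they have no spread of their own. The difference was 1.44 without replicate 6. The day 5 minus day 4 difference of -2.14 ± 0.85 did not pass (adjusted p = 0.398; 0.193% called) and passed with 45 arrays (adjusted p = 0.00269). Array batch also differed between day 4 and the later days, and with array batch as a block and all arrays in the day 6 minus day 4 difference was -0.97.

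In CCA1OX the 6 arrays of the 3 days lay between 6.53 and 7.57. GI at dark 280 min was at 6.56 and 6.53 on day 6 and at 7.57 and 6.95 on day 5, against 7.11 and 7.30 on day 4. The day 6 arrays lay below those of day 4, with a difference of -0.66 ± 0.85 (limma adjusted p = 0.866; 0.492% called). The difference of day 5 from day 4 was 0.05 ± 0.85 (adjusted p = 0.998; 0.0352% called), and -0.26 without replicate 2, the array at odds. In the arrays that follow their label the order of days was the same as in the other lines, over a smaller range: 6.56 and 6.53 on day 6 and 6.95 on day 5, against 7.11 and 7.30 on day 4. The day difference was larger in pif4 pil5 than in CCA1OX by -3.46 (95% interval -5.94 to -0.98), with an unadjusted p of 0.00814 and an adjusted p of 0.403 (0.00440% called), and with 45 arrays the same difference passed (adjusted p = 0.000823). It differed from that in Col by -3.37 with all arrays (adjusted p = 0.915; limma called 0 probe sets, while 1193 had an unadjusted p under 0.05), -1.18 with 45 arrays and -5.56 without Col replicate 6, the last 2 against a single Col array on day 6.

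**Figure D3:**
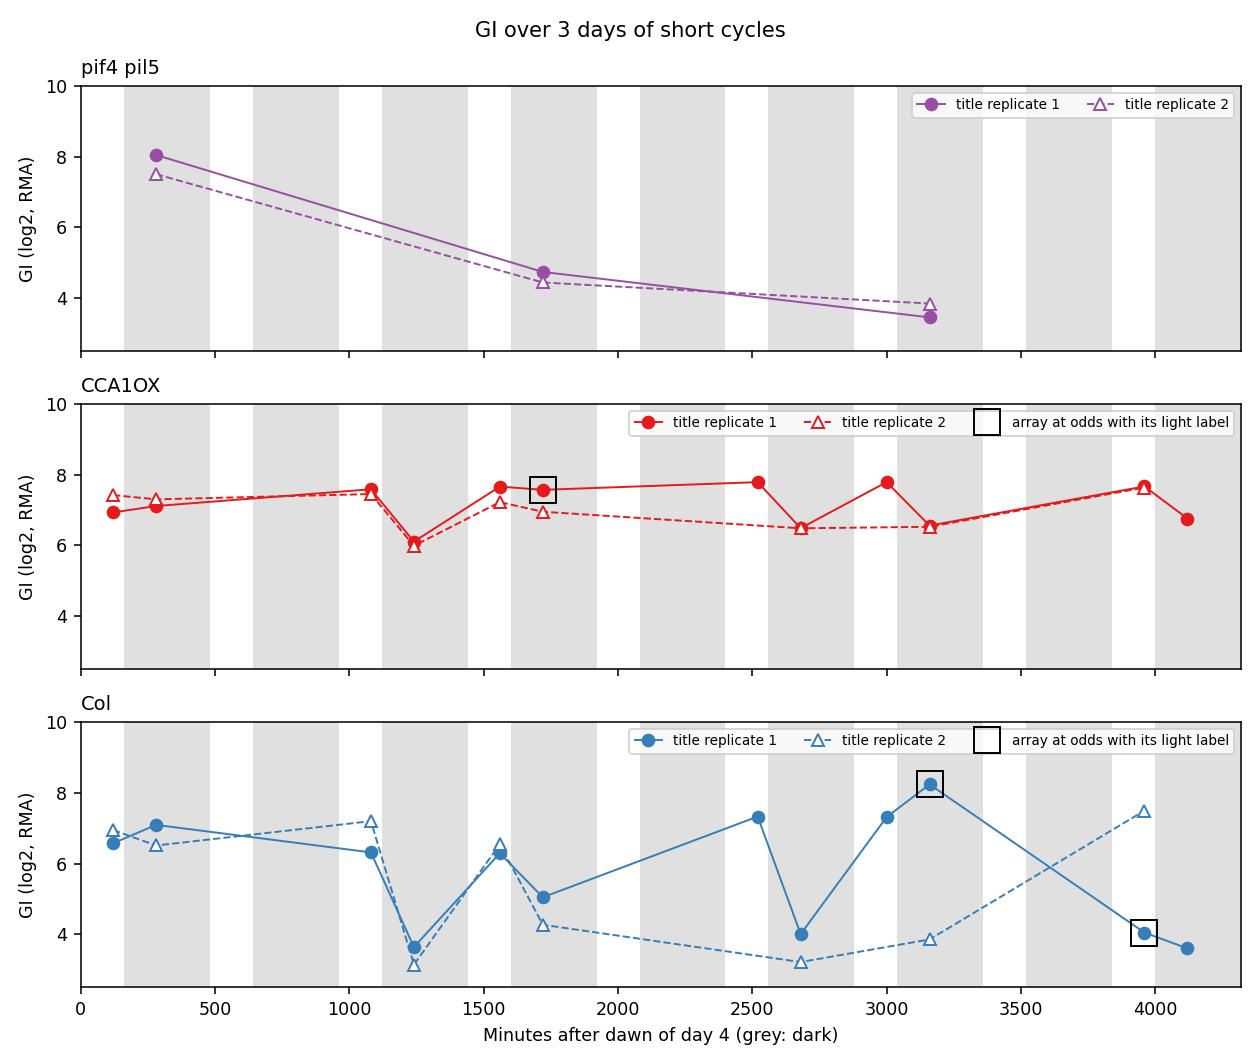
GI expression (log2) against minutes after dawn of day 4 in pif4 pil5, CCA1OX and Col, with dark periods in grey and the replicate number of the sample titles as separate lines; large squares mark arrays at odds with their light label. In pif4 pil5 the level at dark 280 min was 3.46 and 3.85 on day 6 and 8.05 and 7.50 on day 4, while CCA1OX stayed between 5.99 and 7.79 throughout.

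The days at the other times were not tested. In Col dark 1240 GI was at 3.60 on day 6 and at 4.00 and 3.21 on day 5, against 3.64 and 3.14 on day 4. In Col in the light at 120 min it was at 7.31 on day 6 and at 6.29 and 6.55 on day 5, against 6.57 and 6.94 on day 4. The low level at dark 1240 min was thus present on day 4, when the level at dark 280 min was 7.09 and 6.51. In CCA1OX dark 1240 GI was at 6.76 on day 6 and at 6.49 and 6.48 on day 5, against 6.11 and 5.99 on day 4, and in CCA1OX light 120 at 7.79 on day 6, 7.66 and 7.22 on day 5 and 6.93 and 7.42 on day 4. In the light at 1080 min GI was at 7.67 and 7.64 on day 6 and at 7.79 on day 5, against 7.59 and 7.45 on day 4 in CCA1OX. In Col at that time it was at 4.05 and 7.49 on day 6 and at 7.33 on day 5, against 6.31 and 7.20 on day 4, and the 4.05 is the array at odds. In CCA1OX the highest value at dark 1240 min and at light 120 min was that of day 6.

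Over the 3 days pif4 pil5 and Col did not differ by the test at dark 280 min. GI averaged 5.34 in pif4 pil5 and 5.83 in Col, a difference of -0.50 ± 0.60 (95% interval -1.70 to 0.71, limma adjusted p = 0.742; 0.607% called), and -0.01 with Col dark 280 replicate 3 left out. The pif4 pil5 arrays all come from the second campaign, while Col and CCA1OX at this time span both campaigns. Line and campaign are thus partly mixed in these comparisons. In the second campaign alone the difference from Col was 0.46 (limma adjusted p = 0.888). By day the difference was 0.97 ± 0.85 on day 4, -0.07 ± 0.85 on day 5 and -2.39 ± 0.85 on day 6, where the array at odds is 1 of the 2 Col arrays. None of these passed (adjusted p = 0.870, 0.992 and 0.529; 0.0396%, 0.0308% and 0.0132% called). The day 6 difference was -0.20 with 45 arrays, and -4.59 without Col replicate 6, each against a single Col array. Col was labelled growing here and pif4 pil5 not growing. The 95% interval of the day 5 difference, -1.82 to 1.69, leaves room for a difference of over 1 log2 unit in either direction.

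Against CCA1OX at the same time GI averaged lower in pif4 pil5, at 5.34 against 7.00, with a difference of -1.67 ± 0.60, or 3.17-fold (limma adjusted p = 0.0708; 8.68% called), and -1.55 with 45 arrays (adjusted p = 0.0670). It passed with the title number and day as blocks (adjusted p = 0.0438), and without pif4 pil5 replicate 1 (-2.21, adjusted p = 0.0156) or replicate 4 (-2.10, adjusted p = 0.0265), the arrays of day 4. It was smaller and did not pass with array batch (-1.35, adjusted p = 0.259) or campaign (-1.54, adjusted p = 0.135) as a block. In the second campaign alone, which holds all pif4 pil5 arrays, the difference from CCA1OX was -1.59 (adjusted p = 0.276). It did not point the same way on each day, since the pif4 pil5 arrays of day 4, at 8.05 and 7.50, stood above the CCA1OX arrays of that day, at 7.11 and 7.30. By day the difference of CCA1OX from Col at this time was 0.41 ± 0.85 on day 4, 2.60 ± 0.85 on day 5 and 0.50 ± 0.85 on day 6, with all arrays, and did not pass on any (adjusted p = 0.939, 0.770 and 0.944; 0.0264%, 0.0220% and 0.0703% called). With 45 arrays the day 5 difference was 2.30 and the day 6 difference 2.69, where a single CCA1OX array stands for day 5 and a single Col array for day 6. Without Col replicate 6 in place of replicate 3 the day 6 difference was -1.69.

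Probe sets with a pattern like that of GI were ranked by Pearson correlation over all 48 arrays, as a description in which the points share arrays, days and batches. The closest was AT1G73480, a hydrolase gene (r = 0.809 over the arrays and 0.974 over the 9 group means). Like GI it was lowest in Col dark 1240, at 3.94, against 5.90 in Col dark 280, and it stood at 5.95 in CCA1OX dark 1240. Within groups it followed GI less, with r = 0.499 for deviations from group means, and in pif4 pil5 it was at 4.53 on day 6 and 5.31 on day 5, against 5.23 on day 4. Next among the named genes were AT2G41410, which encodes a calmodulin-like protein (r = 0.773), AT5G41400 (0.754), AT5G01790 (0.743), AT1G21590 (0.734) and AT1G80130 (0.727). AT1G72500 (0.706), AT4G30400 (0.697), the cell wall gene XTH32, which encodes a xyloglucan endotransglucosylase (0.685), and AT5G64180 (0.684) completed the 10. Another 12 probe sets without a single gene name ranked among them, and the 99th percentile of r over all 22745 other probe sets was 0.555.

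At the other end, 4 of the 5 named genes with the lowest correlations had a coefficient of -0.605 or lower for deviations from group means. AT1G25550, which encodes a MYB-like transcription factor, had r = -0.743 over the arrays and -0.689 for deviations from group means. In pif4 pil5 at dark 280 min it was at 8.01 on day 6 and 7.30 on day 5, against 7.00 on day 4, the reverse of the order of GI. AT3G19030 (r = -0.721, and -0.684 for deviations) was at 8.94 on day 6 and 8.25 on day 5, against 6.62 on day 4 in the same samples. AT5G14370 (-0.739), AT5G06610 (-0.707) and AT3G47000 (-0.702) were the other named genes of this end. Correlations of these 15 genes kept their sign in each campaign, with 45 arrays, as rank correlations and for deviations from group means. The genes were picked by their correlation over these same arrays, so the kept signs are no independent check.

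**Figure D4:**
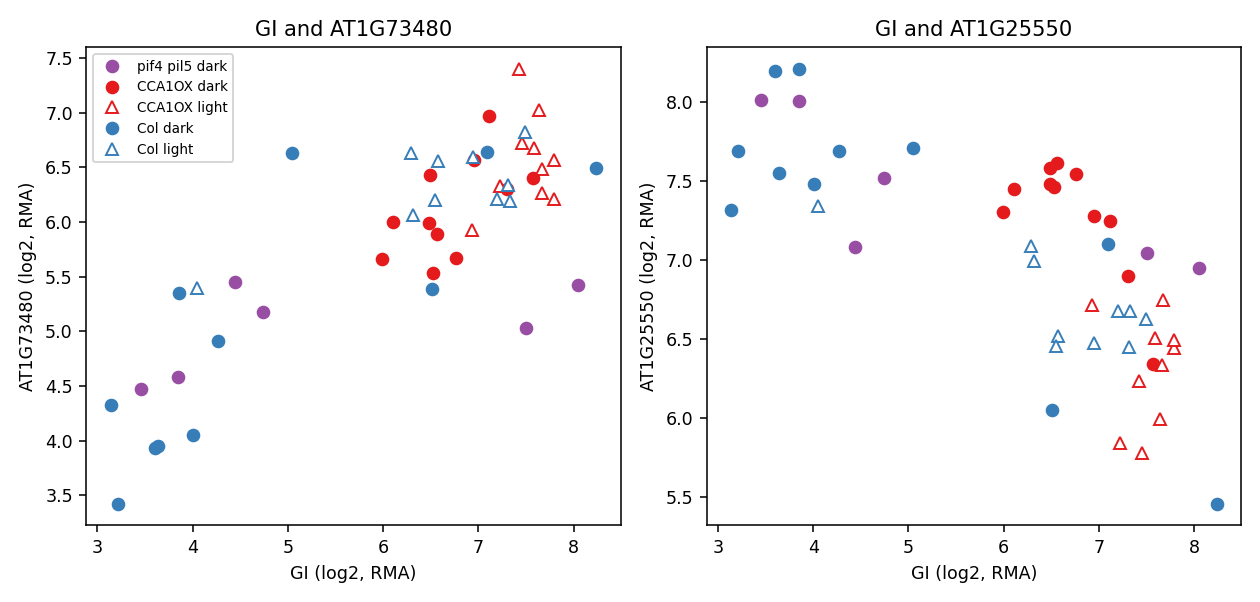
Expression of AT1G73480 (left, r = 0.809) and AT1G25550 (right, r = -0.743) against GI in the 48 arrays (all log2), coloured by line, with dark samples filled and light samples open. The 5 Col dark 1240 arrays have the lowest AT1G73480, between 3.43 and 4.33, and the 4 highest values of AT1G25550, 8.01 to 8.21, belong to arrays with GI between 3.46 and 3.85.

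Genes that act around GI were taken from lists of evening and morning clock genes, partners of the GI protein, photoperiod outputs and light signalling, 60 genes in all, of which 9 had a named probe set. Their calls come from the same limma fits, adjusted over all probe sets, and 16 of their 17 calls passed in the same direction with 45 arrays, the exception being RVE6. This is a weak check. Many of the calls compare groups that hold none of the arrays left out, so their differences could not change. CDF5 in CCA1OX against Col at dark 1240 min, for example, was 2.55 in both fits. The arrays were also chosen by light-responsive probe sets, which favours light and dark differences such as those of HYH. Among the photoperiod outputs CDF5, a Dof factor of the family that represses CO and is removed by GI and FKF1, was called beside GI. At dark 1240 min CDF5 rose in CCA1OX against Col (2.55 ± 0.30, adjusted p = 1.06e-06), as 1 of the 9 genes called there, where 0.580% of probe sets were called higher and the median of the 9 was 0.22, against -0.01 over all probe sets. In Col CDF5 averaged 3.68 at dark 1240 min and 5.17 at dark 280 min, and fell by 1.49 ± 0.29 (adjusted p = 0.0108; 0.0923% called lower). In pif4 pil5 at dark 280 min it averaged 3.90 and was lower than in Col (-1.27 ± 0.28, adjusted p = 0.0186; 0.404% called lower) and than in CCA1OX at 5.74 (-1.83 ± 0.28, adjusted p = 2.52e-05; 4.12% called lower). The pif4 pil5 arrays all come from the second campaign, and the fits behind these CDF5 values held no term for campaign. The correlation of CDF5 with GI was 0.606 over the 9 group means and -0.309 for deviations from them, so the 2 genes were alike between groups and not within them.

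Of the evening list, COR27 and COR28, cold- and clock-regulated genes, were like GI lower on days 5 and 6 than on day 4 in pif4 pil5. Both were lowest on day 5, while GI was lowest on day 6. The differences of day 6 from day 4 were -2.55 ± 0.57 for COR27 (limma adjusted p = 0.0218) and -1.18 ± 0.24 for COR28 (adjusted p = 0.0137). These were 2 of the 9 genes, where 1.09% of probe sets were called lower and the median of the 9 was 0.0018, against -0.02 over all probe sets. The day 5 differences were -3.06 ± 0.57 (adjusted p = 0.0160) and -1.85 ± 0.24 (adjusted p = 0.000944; 0.110% called lower). In CCA1OX COR27 differed by 1.96 ± 0.57 from day 4 to day 6 (adjusted p = 0.126) and COR28 by 0.44 ± 0.24 (adjusted p = 0.541). In Col COR27 differed by -0.83 ± 0.57 (adjusted p = 0.485) and COR28 by -0.13 ± 0.24 (adjusted p = 0.85). Tests of whether this change in pif4 pil5 differed from that in CCA1OX or in Col did not pass for either gene (adjusted p = 0.099 to 0.948). Over the group means COR28 ran against GI, with r = -0.862, and stood highest in Col dark 1240 at 3.15. Its correlation with GI was -0.228 over the 48 arrays and 0.259 for deviations from group means. The group means of COR28 were low, from 2.08 to 3.15, and those of COR27 ran from 2.12 to 4.91. COR27 rose in the dark in the late cycle of CCA1OX (2.72 ± 0.56, adjusted p = 0.00255), as CDF5 did (1.32 ± 0.30, adjusted p = 0.00613; 1.96% called higher), where GI had a difference of -1.26.

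CCL, a clock-regulated gene on the evening list, was lowest in Col light 120 at 7.29, a group in which GI was not low. It was higher in Col dark 280 (2.68 ± 0.41, limma adjusted p = 0.000236; 0.598% called higher), in Col light 1080 (2.29 ± 0.42, adjusted p = 0.00797; 0.0615% called higher) and in CCA1OX light 120 (1.92 ± 0.42, adjusted p = 0.0288; 0.154% called higher). HYH, a bZIP factor of light signalling, fell in the dark in the late cycle of CCA1OX (-3.04 ± 0.57, adjusted p = 0.00103; 2.36% called lower). In the early cycle it fell in CCA1OX (-2.09 ± 0.54, adjusted p = 0.0387; 0.818% called lower) and in Col (-2.33 ± 0.54, adjusted p = 0.0212; 0.422% called lower), where the GI levels of dark and light overlapped. RVE6, a MYB-like factor on the morning list, had r = 0.770 with GI over the 9 group means, 0.433 over the 48 arrays and 0.160 for deviations from group means. In Col at dark 280 min RVE6 was higher on day 6 than on day 4 (1.1 ± 0.23, limma adjusted p = 0.00913; 1.62% called higher). An array of that day is at odds with its label, and with 45 arrays the difference was 0.67 (adjusted p = 0.204). In Col dark 1240 against light 1080, where GI differed most within Col, 0 of the 9 genes passed in limma, where 0.0747% of all probe sets did, with a median difference of 0.15 (0.0059 over all probe sets). SPY, an enzyme that binds GI, the bZIP factor EEL and the Dof factor CDF4 were called in none of the 31 comparisons run. The group means of EEL (2.59 to 2.99) and CDF4 (3.51 to 4.01) lay below the probe set median of 4.70, where changes may go unseen.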

How the data were processed

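The values are log2 expression levels that the authors made with RMA in the affy package, per the submitters' processing notes; the versions are not given in the sources used here. They were used as deposited. Of 22810 probe sets, 64 controls were left out. Names come from the platform annotation: 13513 probe sets have 1 gene, 503 several and 8730 no entry, and 13436 were matched to a current locus. limma 3.58.1 in R 4.3.3 fitted 1 mean per group over all 48 arrays, or per group and day, with Benjamini-Hochberg adjustment over 22746 probe sets and a threshold of 0.05. The fit was tested on simulated data.

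Replicates are samples of following days and of 2 time courses, so p-values measure the spread between these samples. The title number marks the time course, from the study's design text: arrays of the same time course and day had a mean residual correlation of 0.297, against -0.221 for arrays sharing neither. In Col and CCA1OX the title number and the campaign divide the arrays alike, so time course and campaign cannot be told apart there. The number of arrays limits precision. The named genes are GI, the 10 named genes with the highest and the 5 with the lowest correlation with GI, and listed genes with a probe set of their own. GI, the lists and the tests were chosen with earlier results of these data known, and differences between day 5 and day 4, lines by day, and listed genes with 45 arrays, were added after values were seen. Alternatives were 2 normalizations, a dim filter, the variance prior, array weights, batch, campaign and replicate blocks, each campaign alone, 45 arrays, the compared groups alone and each array left out.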

Additional observations from a re-analysis of the deposited data

How the results depend on the processing

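The higher GI in CCA1OX than in Col at dark 1240 min passed under all alternatives that keep both campaigns and all arrays, and not in either campaign alone (2.70 in the first, 3.06 in the second). These fits hold fewer arrays. The lower GI on day 6 than on day 4 in pif4 pil5 passed under all 10 alternatives to the fit and under none of the 4 that leave out an array. For dark 1240 minus light 1080 in Col the difference passed with campaign (-2.96), with the replicate block (-2.96), with the replicate block and day (-2.99), with dim probe sets left out (-2.96), with array weights (-3.40) and with 45 arrays (-3.56). It did not pass under the other 7 of the 13 alternatives. These were the batch block, both normalizations, the trended and robust prior, the compared groups alone and each campaign alone. Of the other comparisons planned at first, pif4 pil5 minus CCA1OX at dark 280 min passed with the replicate block and day (-1.67) and with array weights (-2.03). Dark 1240 minus light 1080 in CCA1OX passed with these groups alone (-1.26), and day 6 minus day 4 in Col in the second campaign (-2.66) and with 45 arrays (-2.95). These last 2 set a single Col array on day 6 against day 4 and assume that it varies like the other groups. The replicate block changed no other call among the comparisons of groups. The sign turned for dark 280 minus light 120 in Col in the first campaign (0.067), for the interaction of line and light in the early cycle in the first campaign (-0.45), for light 1080 minus light 120 in Col in the second campaign (0.60), with array weights (0.17) and with 45 arrays (0.35), and for pif4 pil5 minus Col at dark 280 min in the second campaign (0.46). It also turned for day 5 minus day 4 in CCA1OX with the batch block (-0.12), in the second campaign (-0.35) and with 45 arrays (-0.26), and for pif4 pil5 minus Col on day 5 with the batch block (0.036), the campaign block (0.011) and in the second campaign (0.32). The cause was not tested.

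With 1 array left out, the differences in Col ranged over -1.38 to -0.50 (dark 280 minus light 120), -3.56 to -2.70 (dark 1240 minus light 1080, passing without Col light 1080 replicate 3, adjusted p = 0.00196), -0.51 to 0.35 (light 1080 minus light 120) and -2.71 to -1.83 (dark 1240 minus dark 280). For CCA1OX minus Col at dark 1240 min the range was 2.75 to 2.97. For pif4 pil5 minus CCA1OX it was -2.21 to -1.29. For day 6 minus day 4 it was -4.39 to -3.85 in pif4 pil5 and -2.95 to 1.44 in Col. Of the comparisons added later, day 5 minus day 4 in CCA1OX ranged from -0.26 to 0.36, pif4 pil5 minus Col on day 5 from -0.45 to 0.32, on day 6 from -4.59 to -0.20, and CCA1OX minus Col on day 6 from -1.69 to 2.69.

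The number of probe sets called moved by over 1.5 times in most comparisons. For CCA1OX minus Col at dark 1240 min it was 141 and spanned 16 (first campaign) to 615 (array weights). For day 6 minus day 4 in pif4 pil5 it was 476 and spanned 435 (trended and robust prior) to 2951 (array weights). For dark 1240 minus light 1080 it was 17 in Col, from 1 to 512, and 982 in CCA1OX, from 0 to 2205. For dark 280 minus light 120 it was 232 in Col, from 0 to 969, and 326 in CCA1OX, from 0 to 1267. For pif4 pil5 at dark 280 min it was 138 against Col, from 21 to 640, and 1975 against CCA1OX, from 955 to 3639. For day 6 minus day 4 it was 651 in Col, from 49 to 2801, and 112 in CCA1OX, from 109 to 437. For CCA1OX minus Col it was 56 at light 120 min, from 1 to 454, 28 at dark 280 min, from 4 to 98, and 35 at light 1080 min, from 4 to 127. For the times in Col it was 15 in the light, from 0 to 32, and 23 in the dark, from 0 to 58. The first campaign alone was not run for days (no residual degrees of freedom) or for pif4 pil5 (no arrays).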
